A study of Mus musculus with 12 samples.

Results

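Acta2, Actg2, Tpm1, Tpm2, Myl9, Cnn1, Tagln, Smtn, Pdgfrb and Cspg4 are genes by which contractile smooth muscle cells and the pericytes that wrap small vessels are commonly recognised. They were taken by symbol from the deposited gene table, and all 10 were found among its 54532 genes. The cells were wild-type ATDC5 cells, a mouse line labelled as cartilage progenitor cells and used as a model of early cartilage formation. Cultures grown at 37 °C spent 10 min at 1 of 3 temperatures, 37, 40 or 44 °C, with 4 biological replicates at each temperature, and poly-A RNA was sequenced. No recovery interval between heating and RNA extraction is given in the labels, and all 3 groups are 1 cell line in culture with no other treatment or genetic change.

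In smooth muscle, thin filaments of actin slide along myosin when the regulatory light chain of myosin is phosphorylated, and tropomyosin, calponin and other proteins lie along the actin filament. Many of the genes for these proteins carry a DNA element called the CArG box, to which serum response factor (SRF) binds. SRF works with cofactors of the myocardin family: myocardin itself in cardiac and smooth muscle, and the related proteins Mrtfa and Mrtfb in most cells, where they enter the nucleus when unpolymerised actin is scarce. Fibroblasts and mesenchymal progenitors also express a number of these genes, alpha smooth muscle actin above all when they turn into myofibroblasts. Pdgfrb and Cspg4 code for surface proteins of pericytes, and both are also found on mesenchymal progenitors.

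The promoter sequences of Acta2 and Myl9 are shown because they hold the CArG letters among the promoters that could be read. RefSeq promoter windows of 250 bases before to 50 bases after the start site (build GRCm38.p6) were at hand for 7 of the 10 genes, and Actg2, Tagln and Pdgfrb are named only. Capitals mark the CArG letters, and positions count from the start site, with negative positions before it.
Acta2, chr19:34255438-34255467, minus strand, positions −94 to −65: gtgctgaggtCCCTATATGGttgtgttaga
Acta2, chr19:34255388-34255417, minus strand, positions −44 to −15: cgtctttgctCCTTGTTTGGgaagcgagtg
Myl9, chr2:156775298-156775379, plus strand, positions −166 to −85: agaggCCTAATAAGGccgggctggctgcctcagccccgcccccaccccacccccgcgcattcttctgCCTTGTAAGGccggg
The full CArG box has CC, then only A or T, then GG. It was found in 1 of the 7 windows, that of Myl9 at positions −161 to −152, and in 1.63% of the 32841 promoter windows of the genome. A looser form with 1 G or C among the central letters was found in 2 of the 7 windows and in 8.49% of all windows. Acta2 held it at positions −84 to −75 and −34 to −25, and Myl9 at −99 to −90. The looser search did not count full boxes. CATTCC, the element bound by TEAD factors, was found on either strand in the windows of Acta2, Smtn and Tpm1, 3 of 7, against 14.7% of all windows. Of the letter patterns that make up a heat shock element, GAANNTTC was found in the Smtn window only, against 7.86% of all windows, and TTCNNGAA in none of the 7, against 8.52%. These are letter matches and say nothing of binding. The newer GENCODE M21 annotation extends the start of Acta2 over the stretch shown for it, whereas the deposited table ends the gene at 34255336.

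The libraries held between 16269026 and 19506705 counts each, and the totals of the 3 groups overlapped. A test was made for the 14424 genes with enough counts, and 7 of the 10 genes were among them. Actg2, Cnn1 and Tagln were not. Below, a level is in CPM, counts set to a common library total and scaled between libraries by edgeR's TMM method, and a fold change is on the log2 scale. A gene is said to have risen or fallen where the adjusted p of edgeR's quasi-likelihood test with Benjamini-Hochberg adjustment over all 14424 genes was under 0.05. In bulk RNA, fewer cells that express a gene and less of its RNA per cell cannot be told apart.

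The genes spanned a wide range of levels in unheated cells. Set per kilobase of gene length, as the table lists it, Acta2 and Tpm1 stood highest at 37 °C, at 68.2 and 65.1 CPM per kb, and their libraries overlapped. Tpm2 followed at 54.5 and Smtn at 29.97 CPM per kb, each below every library of the gene before it. Cspg4 came next at 6.41 CPM per kb, then Myl9 at 3.89 and Pdgfrb at 3.36, which overlapped. Actg2 at 0.259, Cnn1 at 0.0854 and Tagln at 0.0782 CPM per kb were close to 0. Among all tested genes at 37 °C, 95.0% lay below Acta2 and 86.5% below Smtn, but only 40.4% below Myl9 and 37.5% below Pdgfrb. At 44 °C the order of the upper genes was Tpm1 at 68.3, Tpm2 at 51.2, Acta2 at 40.2 and Smtn at 29.3 CPM per kb. These orders, and the family shares below, depend on the listed lengths, such as 1781 bases for Acta2 and 6485 for Tpm1. Without length scaling, Tpm1 averaged 422 CPM and Acta2 121.5 CPM at 37 °C.

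**Figure D1:**
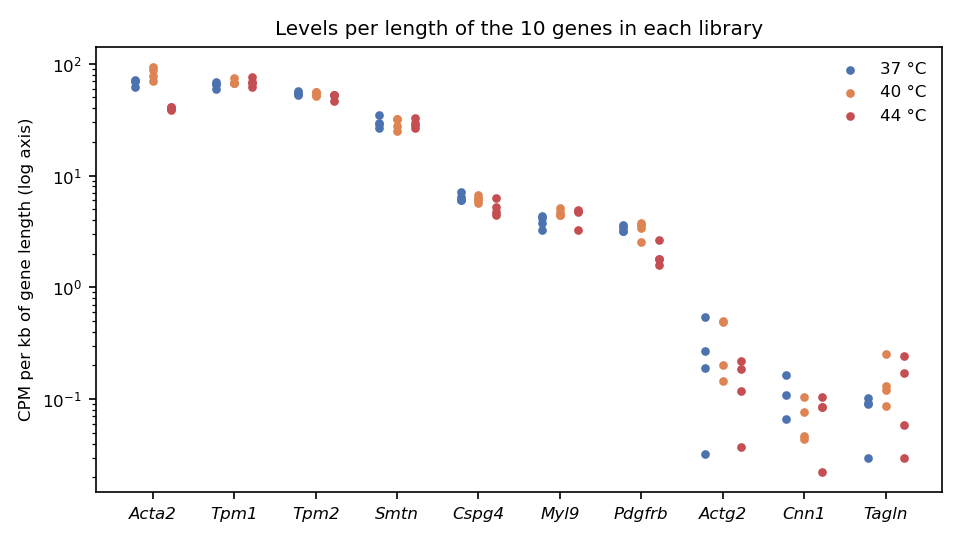
Level of each of the 10 genes per kilobase of gene length (log axis) in each of the 12 libraries, 37, 40 and 44 °C side by side from left to right; each point is 1 library and a library with no count is not drawn. Acta2, Tpm1, Tpm2 and Smtn sit well above Cspg4, Myl9 and Pdgfrb, and Actg2, Cnn1 and Tagln lie at the bottom.

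Several defining markers of differentiated smooth muscle had few or no counts. Myocd, the gene for myocardin, had no count in any of the 12 libraries. Myh11, smooth muscle myosin heavy chain, had at most 4 counts in a library, Des (desmin) at most 4, and Lmod1 (leiomodin 1) at most 6. Of 20 pericyte and mural genes, 11 passed the low-count filter. At 37 °C, Notch2 averaged 205 CPM, Mcam 61.3, Ndufa4l2 60.2, Notch3 25.2, Tbx18 17.8 and Angpt1 15.4, whereas Rgs5 and Kcnj8 had at most 2 counts in a library. The labels call the cells cartilage progenitors, and of 10 chondrogenic genes 6 passed the filter. At 37 °C, the regulators Sox9 and Sox5 averaged 54.2 and 8.17 CPM, and the matrix genes Col11a1 4.42, Acan 2.13, Matn3 1.33 and Col2a1 1.21 CPM. Sox6 and Comp had at most 2 and 4 counts in a library, and Matn1 and Col9a1 had none.

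After 10 min at 44 °C, Acta2, Pdgfrb and Cspg4 were lower than at 37 °C, and none of the 7 tested genes was higher. Acta2 and Pdgfrb stood at a little under 0.6 of their 37 °C level, with folds of 0.589 and 0.582, and Cspg4 at 0.809. Tpm1, Tpm2, Smtn and Myl9 did not pass the test. The 3 called genes compare with 13.7% of all tested genes called in this comparison, 6.58% higher and 7.11% lower. The median log2 fold change of the 7 genes was −0.09, and that of all tested genes was 0.

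Acta2 codes for alpha smooth muscle actin (ENSMUSG00000035783, mm10 chromosome 19, 34241090 to 34255336, minus strand). Its 37 °C libraries read 109, 124, 125 and 127 CPM, those at 40 °C 124, 137, 166 and 156.5, and those at 44 °C 69.0, 70.0, 73.6 and 73.6. Every 44 °C library lay below every library of the other temperatures, a split seen downward in 9.13% of tested genes against 37 °C and 5.44% against 40 °C, whereas the 40 °C and 37 °C libraries overlapped. The 4 libraries at 44 °C lay within 5 CPM of each other. Acta2 averaged 71.5 ± 2.39 CPM at 44 °C and 121.5 ± 8.13 CPM at 37 °C (SD, n = 4 each), a log2 fold change of −0.76 ± 0.08 (SE; adjusted p = 7.66e-05 by edgeR's quasi-likelihood test). Only 21 tested genes had a smaller p in that comparison.

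Acta2 was also lower at 44 °C than at 40 °C. The gene averaged 71.5 CPM at 44 °C and 145.9 ± 18.8 CPM at 40 °C (SD, n = 4), a log2 fold change of −1.03 ± 0.08 (SE; adjusted p = 7.13e-06 by edgeR's quasi-likelihood test), and 4 tested genes had a smaller p. At 40 °C it was 1.20 times its level at 37 °C, with a log2 difference of 0.27 and a 95% confidence interval of 0.10 to 0.44. Its adjusted p was 0.823 by edgeR's quasi-likelihood test, in a comparison that no gene passed. The joint test over the 3 temperatures called Acta2 with an adjusted p of 1.23e-05.

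Actg2 codes for the gamma actin of enteric smooth muscle (ENSMUSG00000059430, chromosome 6, 83512905 to 83536265, minus strand). Its counts were 1, 14, 5 and 7 in 37 °C cells, 13, 12, 6 and 4 in 40 °C cells, and 5, 3, 1 and 6 in 44 °C cells. The groups overlapped, and the summed counts were 27 at 37 °C (exact Poisson interval 17.8 to 39.3), 35 at 40 °C (24.4 to 48.7) and 15 at 44 °C (8.4 to 24.7), intervals that cover counting error only. Fitted without the low-count filter, its log2 fold change was −0.83 at 44 °C against 37 °C, with a 95% interval of −2.13 to 0.48. Against 40 °C its log2 fold change at 44 °C was −1.20, with an interval of −2.475 to 0.07. No difference in Actg2 was detected at this depth.

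Acta2 was a minor part of the actin RNA. Of the length-scaled CPM of the 6 actin genes, Acta2 held 4.81% ± 0.16 in 37 °C cells, 5.50% ± 0.70 in 40 °C cells and 2.57% ± 0.07 in 44 °C cells (SD, n = 4 each). Actb, cytoplasmic beta actin, held 53.1% in 44 °C cells and 51.2% in 37 °C cells. Actg1, cytoplasmic gamma actin, held 44.3% in 44 °C cells and 43.9% in 37 °C cells. Actb itself rose: it averaged 2225 ± 32.8 CPM at 44 °C and 1941 ± 87.7 CPM at 37 °C, a log2 fold change of 0.20 (adjusted p = 0.00612 by edgeR's quasi-likelihood test). So the muscle actin gene and the most abundant cytoplasmic actin gene differed in opposite directions at 44 °C. Actin genes are near-identical in their coding parts and it is not stated how reads that match several genes were counted, so these shares are uncertain.

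**Figure D2:**
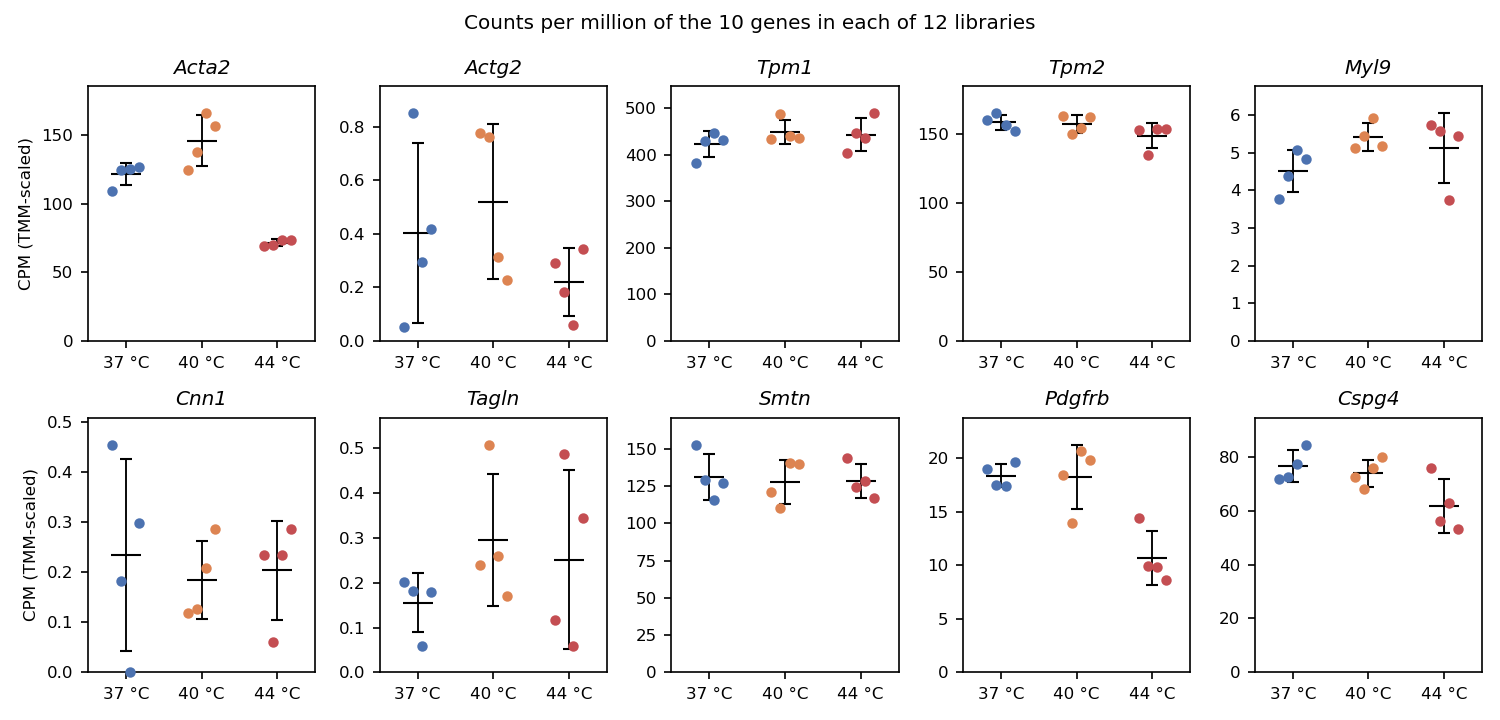
Level of each gene in CPM at 37, 40 and 44 °C, from left to right in each panel; points are the 4 libraries and the bars mark the mean with its SD. The Acta2 libraries at 44 °C (69.0 to 73.6 CPM) sit below all others, Pdgfrb is lowest at 44 °C, and Tpm1, Tpm2 and Smtn overlap at all temperatures.

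Pdgfrb, the receptor tyrosine kinase that binds PDGF-B and recruits pericytes to vessels, also fell at 44 °C (ENSMUSG00000024620, chromosome 18, 61045150 to 61085061, plus strand). Its libraries read 19.0, 17.5, 17.4 and 19.6 CPM in 37 °C cells, 18.5, 13.9, 20.7 and 19.85 in 40 °C cells, and 14.4, 9.90, 9.895 and 8.63 in 44 °C cells. The 44 °C group lay wholly below the 37 °C group, while its replicate 1, at 14.4 CPM, exceeded 1 of the 40 °C libraries. Pdgfrb averaged 10.7 ± 2.55 CPM at 44 °C and 18.4 ± 1.10 CPM at 37 °C (SD, n = 4 each), a log2 fold change of −0.78 ± 0.15 (SE; adjusted p = 0.00435 by edgeR's quasi-likelihood test). Against 40 °C, where it averaged 18.2 ± 3.02 CPM, the log2 fold change at 44 °C was −0.77 ± 0.15 with an adjusted p of 0.00784. Between 40 °C and 37 °C it was −0.01, with a 95% interval of −0.32 to 0.30.

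Cspg4, the NG2 chondroitin sulfate proteoglycan of the pericyte surface, gave a smaller and less stable difference (ENSMUSG00000032911, chromosome 9, 56865033 to 56899870, plus strand). Its libraries read 71.7, 72.4, 77.5 and 84.4 CPM in 37 °C cells, 72.3, 67.85, 75.7 and 79.7 in 40 °C cells, and 75.6, 56.2, 62.65 and 53.05 in 44 °C cells. In 3 of the 4 libraries at 44 °C it was below every other library, and replicate 1 lay inside the range of the 37 °C group. It averaged 61.9 ± 10.0 CPM at 44 °C and 76.5 ± 5.87 CPM at 37 °C (SD, n = 4 each), a log2 fold change of −0.31 ± 0.10 (SE; adjusted p = 0.0491 by edgeR's quasi-likelihood test). That call was lost in 9 of 13 alternative analyses, 7 of them leaving out 1 library, with adjusted p-values between 0.00278 and 0.142. Against 40 °C the log2 fold change at 44 °C was −0.26 with an adjusted p of 0.148, and leaving out replicate 1 of 44 °C gave −0.37 with an adjusted p of 0.0102. Replicate 1 was also the highest 44 °C library for Pdgfrb.

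Tpm1 and Tpm2 code for tropomyosins, which wind along the actin filament. Tpm1 (ENSMUSG00000032366, chromosome 9, 67022590 to 67049406, minus strand) was the most abundant of the 10 genes in CPM, at 382 to 446.5 CPM at 37 °C, 434 to 487 at 40 °C and 403 to 489 at 44 °C. Its groups overlapped. The log2 difference at 44 °C from 37 °C was 0.07, with a 95% interval of −0.07 to 0.21. Tpm2 (ENSMUSG00000028464, chromosome 4, 43514711 to 43523765, minus strand) ranged over 152 to 165 CPM at 37 °C, 150.1 to 163 at 40 °C, and 135 to 154 at 44 °C. Its log2 difference at 44 °C from 37 °C was −0.09, with an interval of −0.21 to 0.03, and both intervals lie above that of Acta2, −0.94 to −0.59. Of the length-scaled CPM of the 4 tropomyosin genes, Tpm1 held 8.12% at 44 °C and 8.05% at 37 °C, and Tpm2 held 6.08% and 6.74% at the same temperatures. Tpm4, a cytoskeletal form, held 69.4% at 44 °C and 68.7% at 37 °C, and as with the actins, reads shared by these genes make the shares uncertain.

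Myl9 codes for the regulatory light chain of smooth muscle myosin (ENSMUSG00000067818, chromosome 2, 156775420 to 156781658, plus strand). Its libraries read 3.78, 4.37, 5.07 and 4.83 CPM in 37 °C cells, 5.13, 5.45, 5.93 and 5.19 in 40 °C cells, and 5.72, 5.59, 3.75 and 5.43 in 44 °C cells. Every 40 °C library lay above every 37 °C library, a split seen upward in 1.61% of all tested genes. These libraries held only 72 to 114 counts of Myl9. At 40 °C their SD was 6.77% of the mean, below the 10.3% that counting error alone would give. The log2 difference at 40 °C from 37 °C was 0.27, with an interval of −0.07 to 0.60 and an adjusted p of 0.823 by edgeR's quasi-likelihood test. At 44 °C the log2 difference from 37 °C was 0.18, with an interval of −0.15 to 0.52. Most length-scaled CPM of the regulatory light chain genes came from Myl12a, a non-muscle form, at 88.6% in 44 °C cells and 89.7% in 37 °C cells. Myl9 held 8.80% and 7.65%, and Myl12b 2.64% and 2.65%, at the same temperatures. It is not stated how reads that match several genes were counted, so these shares are uncertain.

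Smtn, smoothelin, a protein bound to actin stress fibres, overlapped at all temperatures (ENSMUSG00000020439, chromosome 11, 3517523 to 3540612, minus strand). It averaged 128.5 ± 11.4 CPM at 44 °C and 131 ± 15.5 CPM at 37 °C (SD, n = 4 each), with a log2 difference of −0.03 and a 95% interval of −0.23 to 0.17. At 40 °C it averaged 128 ± 14.7 CPM. The scatter within a temperature was wider than any difference between temperatures, with 37 °C libraries from 116 to 153 CPM.

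Cnn1 and Tagln, calponin 1 and transgelin (SM22 alpha), are classical SRF targets of contractile smooth muscle, and both were almost absent. Cnn1 (ENSMUSG00000001349, chromosome 9, 22099216 to 22109630, plus strand) had 9, 3, 0 and 5 counts in 37 °C cells, 2, 2, 4 and 5 in 40 °C cells, and 4, 1, 4 and 5 in 44 °C cells. Tagln (ENSMUSG00000032085, chromosome 9, 45929619 to 45936058, minus strand) had 4, 3, 1 and 3 counts in 37 °C cells, 4, 8, 5 and 3 in 40 °C cells, and 2, 8, 1 and 6 in 44 °C cells. Neither gene's groups separated, and the 0 of Cnn1 in a library allows up to 3 counts, between 0.151 and 0.190 CPM over the 12 libraries. Without the low-count filter the log2 difference at 44 °C from 37 °C was −0.21 for Cnn1, with a 95% interval of −1.73 to 1.3, and 0.65 for Tagln, with an interval of −0.85 to 2.15. A 2-fold rise lay within both intervals. Tagln overlaps Pcsk7 on the opposite strand, which had 317 to 407 counts, and the strand setting of the counting is not stated, so Tagln's count is uncertain.

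At 40 °C none of the 7 tested genes passed the test against 37 °C, and the background was 0 of 14424 genes called, or 0%. An unadjusted p under 0.05 was reached by 752 genes (5.21%), Acta2 among them, and DESeq2 called 4 genes in all. The 7 genes had a median log2 difference of −0.01, against 0.00 for all tested genes. Between 44 °C and 40 °C, Acta2 and Pdgfrb were lower and none was higher, where 5.02% of all tested genes were called, 1.88% higher and 3.14% lower. The calls over all genes were 271 higher and 453 lower, but 396 higher and 355 lower when libraries were scaled by their totals alone. The comparisons share groups, so the 44 °C libraries enter both of those in which Acta2 fell. The joint test called the same pair, Acta2 and Pdgfrb, against 8.21% of all tested genes.

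**Figure D3:**
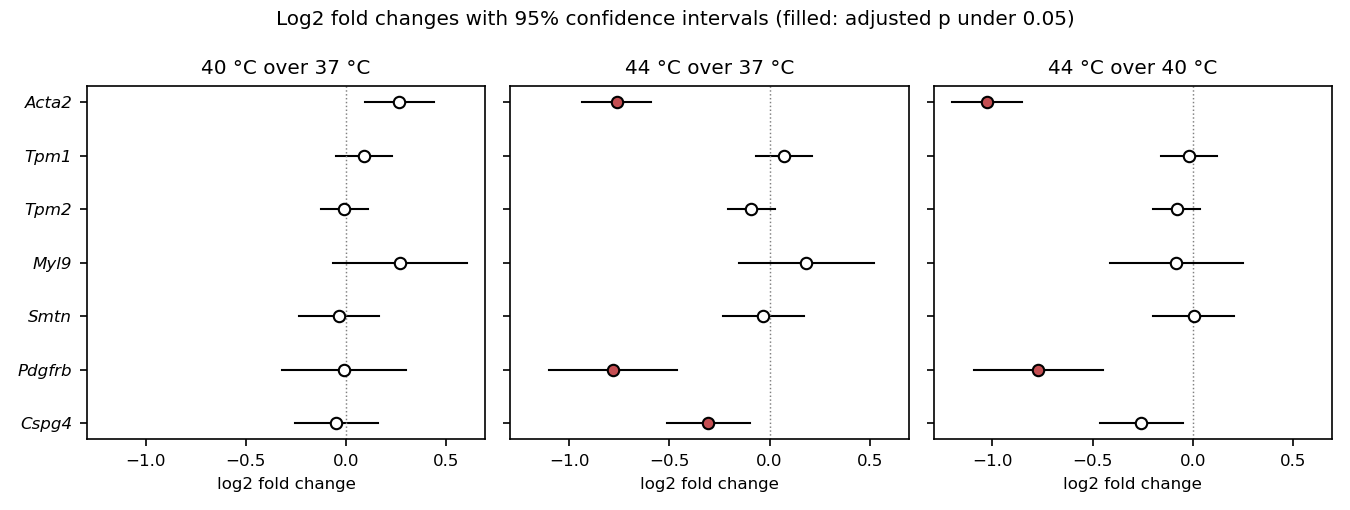
Log2 fold change of the 7 tested genes in each comparison, with 95% confidence intervals as bars and filled points where the adjusted p was under 0.05. Acta2 and Pdgfrb lie near −0.8 at 44 °C against 37 °C, the other genes lie nearer 0, and in the 40 °C comparison no point is filled.

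A list of 13 genes held SRF, its cofactors and other regulators, TEAD factors among them. Of these, 11 were tested at 44 °C against 37 °C, 2 were higher and none lower, with a median log2 difference of −0.04. Over all tested genes 13.7% were called, 6.58% higher and 7.11% lower, and whether 2 higher of 11 differs from these shares was not tested. Fhl2, a LIM-domain cofactor that binds SRF, averaged 51.3 ± 1.28 CPM at 44 °C and 37.1 ± 1.73 CPM at 37 °C, a log2 fold change of 0.47 (adjusted p = 0.00084). Srf averaged 109 ± 8.14 CPM at 44 °C and 88.2 ± 6.38 CPM at 37 °C, a log2 fold change of 0.30 (adjusted p = 0.0125 by edgeR's quasi-likelihood test). Mrtfa, with a log2 difference of −0.04, and Mrtfb, with −0.14, did not pass the test. Against 37 °C, Srf and Fhl2 were higher at 44 °C, where Acta2 was lower. Against 40 °C, Srf at 44 °C differed by 0.13 on the log2 scale and did not pass. Fhl2 was higher by 0.32 in that comparison (adjusted p = 0.0121 by edgeR's quasi-likelihood test), a call lost in 2 of 13 alternatives.

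Of 21 other cytoskeletal SRF targets, 20 were tested, 3 were higher at 44 °C than at 37 °C and 1 was lower, with a median log2 difference of 0.03. The count of 4 in 20 stands beside 13.7% of all tested genes called, 6.58% higher and 7.11% lower. Besides Actb, the higher genes were Pdlim5, a PDZ and LIM protein of actin bundles, at 0.16, and Wdr1, which helps cofilin take filaments apart, also at 0.16. Vcl, vinculin of focal adhesions, was lower by a log2 difference of −0.17. The calls of Pdlim5, Wdr1 and Vcl were lost in 5, 8 and 10 of 13 alternatives. Between 44 °C and 40 °C none of the 20 was higher and 3 were lower, Vcl at −0.19, Flna at −0.17 and Tln1 at −0.17, where 3.14% of all tested genes were lower. Their adjusted p-values of 0.0472, 0.0415 and 0.0454 by edgeR's quasi-likelihood test lay close to the threshold. In this comparison too the Vcl call was lost in 10 of 13 alternatives, and Flna and Tln1 were not run in them.

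In the contractile list of 20 other smooth muscle genes, 11 were tested, and 1 was higher and 1 lower at 44 °C than at 37 °C, near the 13.7% of all tested genes called. Mylk, the kinase that phosphorylates the regulatory light chain, averaged 3.30 ± 0.64 CPM at 44 °C and 5.87 ± 1.17 CPM at 37 °C, a log2 fold change of −0.83 (adjusted p = 0.00999). Pdlim7 was higher by 0.26, with its call lost in 6 of 13 alternatives, and the other 9 did not pass. Cald1, caldesmon, an actin-binding protein that holds back myosin, was abundant at 540 ± 18.8 CPM at 44 °C and 548 ± 16.2 CPM at 37 °C, and its log2 difference was −0.02.

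Of 20 other pericyte and mural genes, 11 were tested, none was higher at 44 °C than at 37 °C and 2 were lower. The median log2 difference of the 11 was −0.41, against 0 for all tested genes. The count of 2 lower in 11 stands beside 7.11% of all tested genes lower and 13.7% called in either direction. Whether it differs from these shares was not tested. Angpt1, angiopoietin 1, the ligand by which pericytes steady the endothelium, averaged 8.02 ± 0.95 CPM at 44 °C and 15.4 ± 1.43 CPM at 37 °C, a log2 fold change of −0.94 (adjusted p = 0.000265 by edgeR's quasi-likelihood test). Ednra, an endothelin receptor, averaged 2.94 ± 0.87 CPM at 44 °C and 6.33 ± 0.75 CPM at 37 °C, a log2 fold change of −1.11 (adjusted p = 0.00615). Notch3, a receptor of mural cells, scattered widely, at 14.9 ± 6.32 CPM at 44 °C and 25.2 ± 7.50 CPM at 37 °C, and did not pass. In the PDGF family none of the 6 other genes passed, and the sister receptor Pdgfra differed by −0.17 on the log2 scale (adjusted p = 0.582). Against 40 °C, Angpt1 was again lower at 44 °C, with a log2 fold change of −0.91 (adjusted p = 0.000597), and Ednra, at −0.70, did not pass.

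**Figure D4:**
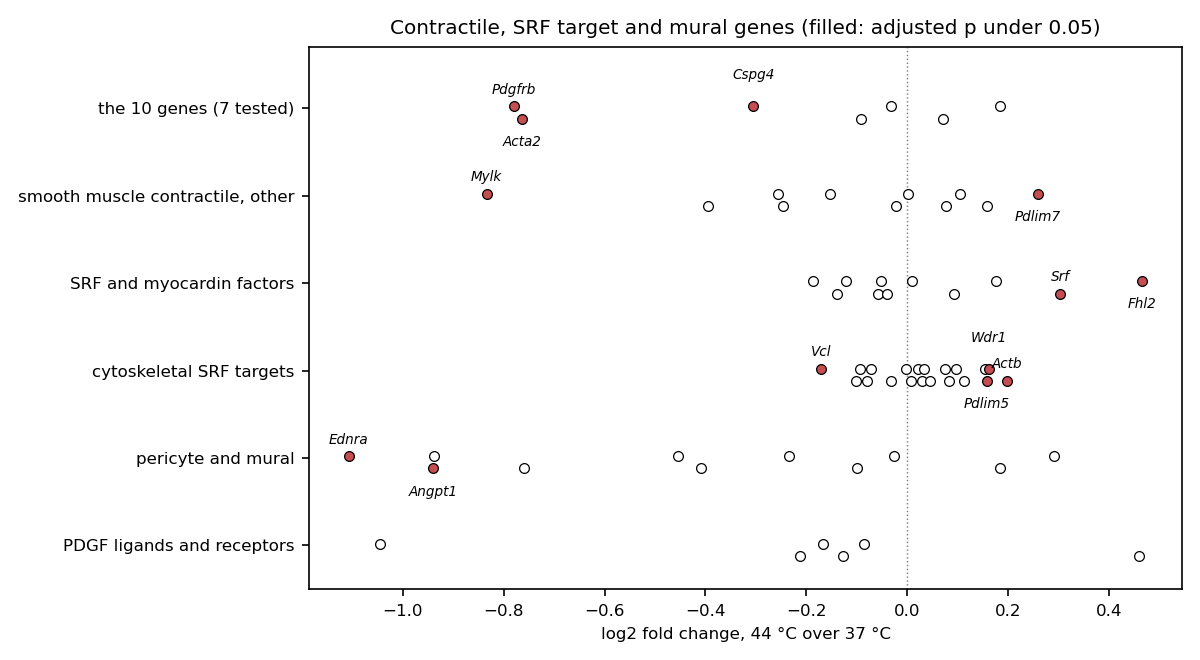
Log2 fold change at 44 °C over 37 °C of the 7 tested genes (top row) and of the tested contractile, SRF, cytoskeletal, mural and PDGF lists below them, 1 point per gene, filled where the adjusted p was under 0.05. The mural genes lie mostly left of 0, with Angpt1 at −0.94 and Ednra at −1.11, and the cytoskeletal genes cluster near 0.

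Markers of other cell types were read beside these results. The fibroblast and mesenchymal list summed to 4048 to 4402 CPM at 37 °C, 3796 to 4527 CPM at 40 °C and 3183 to 3594 CPM at 44 °C. Vim alone carried that sum, at 3307 of 3359 CPM on average at 44 °C and 4118 of 4229 CPM at 37 °C, and Col1a2, Thy1 and Lum had at most 10 counts in a library. At 44 °C, 4 of the 5 tested genes of the list were lower than at 37 °C, Col3a1 with a log2 fold change of −1.27, S100a4 with −1.35, Dcn with −0.79 and Vim with −0.32. Their part in the Acta2 and Pdgfrb results was not tested. Over all tested genes at 44 °C against 37 °C, 13.7% were called, 6.58% higher and 7.11% lower. The counts of called genes in this paragraph stand beside those shares. Of 7 endothelial genes 4 were tested, and at 44 °C against 37 °C Pecam1 and Cdh5 were higher and Flt1 lower, with the calls of Cdh5 lost in 9 of 11 alternatives and of Flt1 in 5 of 13. Pecam1 stayed below 2 CPM on average in each group, Emcn had at most 1 count, and the list summed to 62.2 to 86.2 CPM at 44 °C and 81.8 to 102.9 CPM at 37 °C. Most of the endothelial sum was Flt1, at 66.3 CPM at 44 °C and 89.0 CPM at 37 °C. Of 6 macrophage genes 1 was tested and did not pass, Adgre1 had no count in any library and Ptprc at most 1, and the list summed to 18.5 to 30.6 CPM at 44 °C and 26.7 to 39.9 CPM at 37 °C. Nearly all of the macrophage sum was Cd68, at 23.9 CPM at 44 °C and 31.5 CPM at 37 °C. Of 12 skeletal and cardiac muscle genes 2 were tested and neither passed, and Actc1, Myod1, Myog and Pax7 had no count in any library. That list summed to 45.4 to 55.4 CPM at 44 °C and 44.2 to 54.4 CPM at 37 °C. No chondrogenic gene of the 6 tested passed, Matn1 and Col9a1 had no count in any library, and that list summed to 44.8 to 89.5 CPM at 44 °C and 57.8 to 90.1 CPM at 37 °C. At 40 °C against 37 °C, 0 genes of any list were called.

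The genes whose levels ran most like those of each member across the 12 libraries were sought among the 10547 genes with a mean of at least 5 CPM, by Pearson's r of log2 CPM and as a description. For Acta2 they were Mlec, a lectin of the endoplasmic reticulum, at r = 0.985, Mical3, an actin-related oxidase of vesicle traffic, at 0.975, and Cd151, a tetraspanin, at 0.963. For Pdgfrb they were C1ra, a complement protease, at 0.983, Pcolce, an enhancer of procollagen processing, at 0.981, and Slco2a1, a prostaglandin transporter, at 0.979. For Cspg4 they were Fbf1 at 0.955, Prickle2 at 0.948 and Pml at 0.944. For Tpm1 they were Slc25a5, the mitochondrial ADP/ATP carrier, at 0.961, Atxn7l3b at 0.955 and Tsnax at 0.955, and for Tpm2 they were Ndufa6 at 0.909, Rap2b at 0.907 and Rab9 at 0.902. For Smtn they were Stradb at 0.956, Arap3 at 0.938 and 4930402H24Rik at 0.937, and for Myl9 they were Pcgf2 at 0.914, Lrrc47 at 0.875 and Spr at 0.873. No gene was named for more than 1 member, and all values share the same libraries and their depth.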

How the data were processed

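RNA-seq of 12 ATDC5 libraries was used, 4 each at 37, 40 and 44 °C. The authors deposited raw counts per gene, and the submitters' processing notes name fastp, HISAT2 2.0.5, StringTie 1.3.3b, featureCounts 1.5.0-p3 and mm10, with no order or settings. The strand setting and the handling of reads that match several genes are not given in the sources used here. Gene lengths and coordinates are those in the deposited table. Genes were kept by edgeR's filterByExpr (minimum count 10, minimum total 15), scaled by TMM and fitted with edgeR 4.0.16 (R 4.3.3) by the quasi-likelihood test, with 1 mean per temperature over all 12 libraries. P-values were adjusted by Benjamini and Hochberg over all 14424 tested genes. SE is the log2 fold change over the square root of F, and intervals are at 95%. DESeq2 1.42.0, library totals, no filter, a replicate block, the groups compared alone and each library left out were tried as alternatives. The steps were tested on simulated data. The 10 genes and the 10 gene lists (123 symbols, all 123 matched) were chosen with earlier results of these data known, and 1 further list is not reported here. Every one of the 10 genes is named, and of each list at most 4 called genes at 44 °C against 37 °C with the smallest p; genes beyond that rule (Actg1, Mrtfa, Mrtfb, Cald1, Flna, Tln1, Pdgfra, Tpm4, Myl12a, Cd68 and the uncalled pericyte, chondrogenic and other cell type markers) were chosen after their values were seen. Totals ran from 16269026 to 19506705 counts, and the common biological coefficient of variation was 0.102. Pairs of replicates differed by more than counting error, with chi-square per gene of 2.88 to 21.4 over 18 pairs. The labels say biological replicates but not whether they are separate cultures, so p-values measure the spread between these samples.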

Additional observations from a re-analysis of the deposited data

Results flagged for a closer look

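In 5 of the 30 sets of 4 replicates, 1 library stood apart from the other 3 by more of the set's range than Dixon's 95% limit allows, where chance gives about 1 set in 20. Acta2 in replicate 1 at 37 °C was at 109 CPM, against 124 to 127 in the other 3. Tpm1 in replicate 2 at 40 °C was at 487 CPM, against 434 to 440. Tpm2 in replicate 2 at 44 °C was at 135 CPM, against 153 to 154. Myl9 in replicate 3 at 44 °C was at 3.75 CPM, against 5.43 to 5.72. Tagln in replicate 3 at 37 °C was at 0.059 CPM, which is 1 count, against 0.179 to 0.202. The gaps were 0.864, 0.899, 0.933, 0.852 and 0.841 of the range in that order. No library stood apart for more than 1 of these genes.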

How the results depend on the processing

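Acta2 and Pdgfrb kept their calls and directions in 13 of 13 alternatives in both comparisons with 44 °C libraries; at 44 °C against 37 °C, Acta2 ran from −0.81 to −0.74 and Pdgfrb from −0.95 to −0.69 on the log2 scale. Cspg4 lost its call against 37 °C with library totals (adjusted p = 0.0647) and with the 2 groups fitted alone (0.0709), so 2 of the 10 genes were then called. Over all genes, 40 °C against 37 °C gave 4 calls with DESeq2 and 13 without the filter, and 44 °C against 40 °C gave 1220 with DESeq2 and 334 with the 2 groups alone. Leaving out 1 library of the groups compared gave 979 to 3355 genes and 2 to 3 of the 10 genes at 44 °C against 37 °C, 0 to 0 genes at 40 °C against 37 °C (1 gene without replicate 1 of 44 °C, which shares the spread estimate), 394 to 1265 genes and 2 to 3 of the 10 at 44 °C against 40 °C, and 2 to 3 of the 10 in the joint test. The count at 44 °C against 37 °C moved over 1.5 times without replicates 1, 2 or 4 of 37 °C (979, 1156 and 1063) or of 44 °C (3355, 980 and 1062), and that at 44 °C against 40 °C without replicates 1, 3 or 4 of 40 °C (394, 421 and 420) or 1, 2 or 4 of 44 °C (1265, 426 and 456). The labels do not say whether replicate numbers pair the samples. Same-number correlations ran from −0.207 to 0.366, 3 of 12 above 0.1. In 3 of 12 the best match had the same number, which does not settle the question. With the replicate block 2557, 0 and 901 genes were called at 44 °C against 37 °C, 40 °C against 37 °C and 44 °C against 40 °C, with 3, 0 and 2 of the 10 genes. The same alternatives, chosen after seeing the data, were run in all 3 comparisons on 17 list genes called at 44 °C against 37 °C. Many of the 658 values had no call to lose, among them all at 40 °C against 37 °C. Of the 658, 62 lost a call, 8 gained 1 and 0 had a call that reversed. Some values without a call changed sign, such as Col3a1 at 40 °C against 37 °C, which ran from −0.134 to 0.044. The cause of these changes was not tested. Depth leaves Actg2, Cnn1 and Tagln open to differences of more than 2-fold in at least 1 direction.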

Other observations

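Within each temperature, the libraries high in Smtn tended to be low in Tpm1. At 44 °C, replicate 1 had the highest Smtn, at 144 CPM, and the lowest Tpm1, at 403 CPM, and replicate 4 had the lowest Smtn, at 117 CPM, and the highest Tpm1, at 489 CPM. At 40 °C, replicate 2 had the lowest Smtn, at 110.4 CPM, and the highest Tpm1, at 487 CPM, but the highest Smtn and the lowest Tpm1 fell in different libraries. At 37 °C, replicate 1 had the highest Smtn, at 153 CPM, and the lowest Tpm1, at 382 CPM, and replicate 3 had the lowest Smtn, at 116 CPM, and the highest Tpm1, at 446.5 CPM. Pdgfrb and Cspg4 shared their highest library, replicate 1, and their lowest, replicate 4, with Smtn at 44 °C. As deviations from temperature means, Tpm1 had a Pearson's r of −0.885 with Smtn, −0.799 with Pdgfrb and −0.543 with Cspg4. Its r was −0.279 with Tpm2, 0.271 with Acta2 and 0.322 with Myl9. These patterns were noticed in the data and were not tested.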
